A study of Camellia sinensis with 9 samples.

Results

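Root and leaf of the tea plant, Camellia sinensis, were compared across all listed miRNAs, using the 3 root libraries root13, root23 and root33 and the 3 leaf libraries leaf1, leaf23 and leaf41. Both organs came from untreated plants, and the labels give no cultivar, genotype or age. Each distinct mature sequence was counted once, with U and T read alike and the names of equal sequences joined by a slash, which turned 371 named entries into 341 sequences of 63 families. Of these, 244 had at least 1 read in root or leaf, 177 had reads in both organs, 29 had reads in root only and 38 in leaf only, and 97 had none. The root-only and leaf-only sequences were rare, with at most 35 reads (MIR395r_3p) and 66 reads (MIR398c_5p) in an organ. A total of 3 flower libraries entered the statistical fit for the estimate of the spread and are not described. Whether each library was made from a different plant is not said in the labels. The p-values therefore cover only the spread among the libraries sequenced, which may be technical. The table lists miRNAs alone and holds no gene that marks an organ, so the organ labels could not be checked against markers. In whole organs, fewer cells that carry a miRNA and less of it per cell cannot be told apart.

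Plant miRNAs are cut by a Dicer-like enzyme from a hairpin precursor, which gives a duplex of a 5p and a 3p strand. One strand is usually kept in an Argonaute protein, and it guides cleavage or translational repression of mRNAs that pair with nearly its whole length. Members of a family come from several genes. Their sequences from the same strand usually share most of their bases, often including the seed near the 5′ end. The families act largely on transcription factors and on the silencing machinery itself. The target roles given below are known mainly from Arabidopsis thaliana, and targets in tea were not analysed here.

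Mature sequences of called miRNAs and of their close relatives in the miR167, miR171, miR535, miR156, miR390 and miR828 families are printed 5′ to 3′ as deposited, with the seed, bases 2 to 8, in capitals. The miR167 and miR535 sequences are shown because relatives that differ by few bases had opposite balances in the organs. In miR535, the higher level of miR535b_5p and miR535d_5p in root was not called with all libraries, although the family share of miR535b_5p was.
miR167c_5p/miR167h_5p: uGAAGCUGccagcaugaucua
miR167b_5p: uGAAGCUGccagcaugaucuag
miR167e_5p: uGAAGCUGccagcaugaucug
miR535a_5p/miR535c2_5p: uGACAACGagagagagcacgc
miR535b_5p: uGACGACGagagagagcacgc
miR535d_5p: uGACGAUGagagagagcacgc
The 3p strands of miR171 are shown because they made up most of the family and moved in both directions.
miR171g_3p: uUGAGCCGcgucaauaucucu
miR171b_3p/miR171m_3p: uUGAGCCGcgucaauaucuc
miR171c_3p: uUGAGCCGugccaauaucgcg
MIR171x_3p: uUGAGCCGugccaauaucacg
miR171h_3p: uGAUUGAGccgugccaauauc
MIR171v_3p: cGAGCCGAaucaauaucacuc
The last sequences are the main strand of miR390, a 3p strand of miR156 that was common in leaf and rare in root, and miR828a_5p.
miR390b_5p: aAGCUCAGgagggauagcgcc
MIR156j_3p: uGUUCACUucucuucugucagu
miR828a_5p: uCUUGCUCaaaugaguauucca

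Positions are counted from 1 at the 5′ end of the first sequence named. The sequence of miR167c_5p/miR167h_5p differs from miR167e_5p by A21G alone, and it equals the first 21 bases of the 22-nt miR167b_5p. The 3 thus share the seed GAAGCUG. The sequence of miR535a_5p/miR535c2_5p differs from miR535b_5p by A5G, and miR535b_5p differs from miR535d_5p by C7U, so these lie in the seed. The 20-nt sequence of miR171b_3p/miR171m_3p lies within the 21-nt miR171g_3p, and miR171c_3p differs from MIR171x_3p by G19A. Of the 129 sequences that passed the low-count filter, 67 have such a near-identical relative in the table, as do 25 of the 45 called below, and none of MIR171v_5p, MIR171v_3p, MIR167p_3p, MIR156j_3p and miR156d_3p has one. How reads that match several of them were assigned is not given in the sources used here, so the split of reads between near-identical sequences is uncertain.

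Over distinct sequences, the libraries held 369605 counts in root13, 662023 in root23 and 508710 in root33, and 488607 in leaf1, 476517 in leaf23 and 530334 in leaf41. Between 160 and 184 sequences had a read in a library. The library leaf41 stood apart from leaf1 and leaf23. Across the 129 tested sequences, the correlation of log2 CPM (counts scaled to a common library size after TMM scaling, with 0.5 added) was 0.93 between leaf1 and leaf23, 0.903 to 0.94 among root libraries, and 0.72 and 0.762 between leaf41 and the other leaf libraries. Against root, leaf41 reached 0.689 to 0.764, where leaf1 and leaf23 reached 0.537 to 0.638. These correlations are over sequences of 6 libraries, and sequences are not independent replicates. Among 124 sequences with a mean of at least 10 CPM, leaf41 was nearer to the root mean than to the other leaf libraries in 60 (48.4%), compared with 15 (12.1%) for leaf1 and 18 (14.5%) for leaf23. The labels give no reason for this. Results are therefore given with and without leaf41.

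Root carried more of its miRNA reads as 3p strands and in the miR166 family, and leaf carried more as 5p strands and as 22-nt sequences. The miR166 family, which acts on class III HD-ZIP transcription factors, took 54.1%, 66.9% and 62.2% of the counts in the root libraries and 36.4%, 44.0% and 41.7% in the leaf libraries (mean ± SD of 3 libraries, 61.1% ± 6.46 and 40.7% ± 3.89; exact permutation test, two-sided, p = 0.1). Strands named 5p took 21.1%, 16.3% and 19.4% in root and 38.3%, 33.2% and 43.7% in leaf (exact p = 0.1). The most abundant 5p sequences of leaf were miR167e_5p, miR167b_5p, miR535a_5p/miR535c2_5p and miR168a_5p/MIR168f_5p. In length, 21-nt sequences took 85.7% ± 2.31 in root and 75.9% ± 5.21 in leaf, and 22-nt sequences took 4.14% ± 1.02 and 9.54% ± 1.38 (exact p = 0.1 each). The libraries of the organs did not overlap in any of these 4 shares, and 0.1 is the smallest p that 3 against 3 libraries allow. These shares are not separate results. A single 21-nt 3p strand, miR166a_3p/miR166b_3p, took 42.9% to 53.5% of the root and 31.2% to 38.6% of the leaf counts. A larger share of it lowers those of 5p strands and of 22-nt sequences. The other 4 of the 8 shares compared overlapped. Sequences of 20 nt took 9.90% ± 1.47 in root and 14.5% ± 5.91 in leaf (exact p = 0.4), with leaf41 at 7.78% below every root library. A first base U was as frequent as 95.9% ± 0.79 and 96.1% ± 0.11 (exact p = 0.9), the 10 most abundant sequences of each library held 84.0% ± 2.59 and 88.8% ± 4.11 (exact p = 0.2), and miRNA counts per unit of the authors' divisor gave an exact p of 0.8. After Benjamini-Hochberg adjustment over the 8 shares, the 4 without overlap had an adjusted exact p = 0.2.

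**Figure D1:**
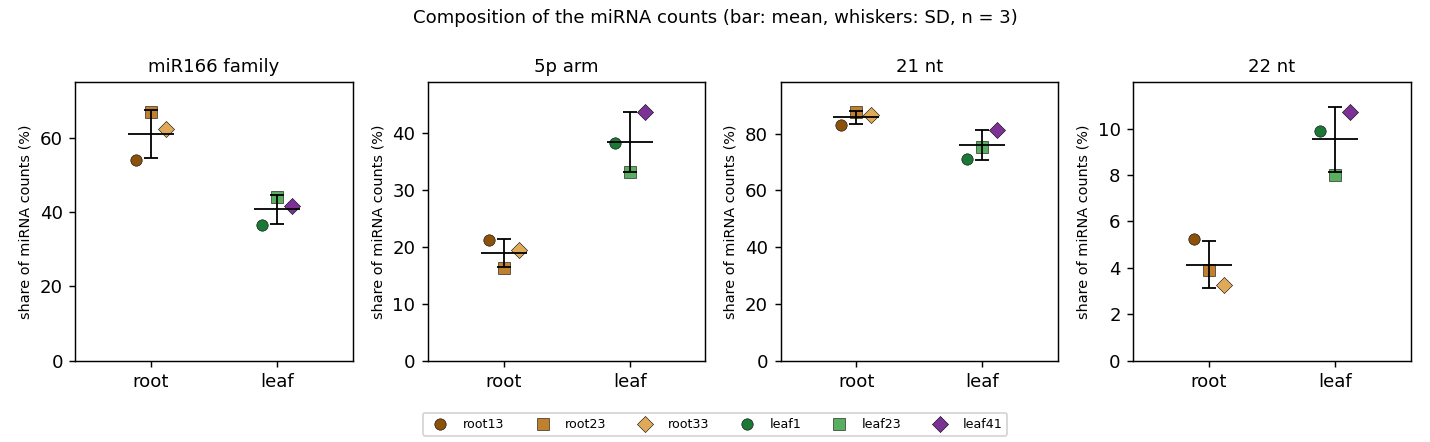
Shares of the miRNA counts (percent, linear axes from 0) in each root and leaf library, with the mean as a bar and the SD (n = 3) as whiskers. Root libraries held 16.3% to 21.1% of their counts in 5p strands and leaf libraries 33.2% to 43.7%, and the miR166 share was higher in each root library than in each leaf library.

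The most abundant sequence of both organs, miR166a_3p/miR166b_3p, was not called. It stood at 284440, 570435 and 570175 CPM in root13, root23 and root33 and at 302197, 356738 and 294952 CPM in leaf1, leaf23 and leaf41 (log2 0.58 ± 0.27 SE, adjusted p = 0.115). Root13 lay below every leaf library on this scale, where its TMM factor was 1.51, beside 0.908 to 1.18 in the other root and leaf libraries. As a share of all counts, the same sequence took 42.9%, 53.5% and 51.8% in root and 31.2%, 38.6% and 34.8% in leaf, and root13 lay above every leaf library. The sign of the log2 difference turned under other settings given in the closing section. The same 6-library order of values, root first, is used below. The 10 most abundant sequences of each organ had 7 in common. Those among the top 10 of root alone were miR171g_3p, miR167c_5p/miR167h_5p and miR166h_3p/MIR166o_3p/MIR845h-3p, and those of leaf alone were miR167e_5p, miR535a_5p/miR535c2_5p and MIR168g_3p. All 6 were called in the direction of the organ whose list they were on, a direction that choosing them by rank largely sets in advance. The calls of miR167c_5p/miR167h_5p and miR166h_3p/MIR166o_3p/MIR845h-3p were lost in some settings given below. miR159a_3p/miR159b_5p, of a family that acts on GAMYB-like factors, stood at 51473, 69505 and 84368 CPM in root and at 181665, 150159 and 50797 CPM in leaf. It was not called with leaf41 (log2 -0.90 ± 0.45 SE, adjusted p = 0.128) and was called without it (log2 -1.34).

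By edgeR's quasi-likelihood test, 45 of 129 sequences differed between root and leaf at an adjusted p under 0.05 (34.9%), of which 28 (21.7%) were higher and 17 (13.2%) lower in root. The libraries did not overlap for 73 sequences (56.6%), among them 44 of the 45 called. At an unadjusted p under 0.05 there were 63. Without leaf41, 80 of 141 sequences were called (56.7%), 52 (36.9%) higher and 28 (19.9%) lower, and these included 41 of the 45. The 4 calls lost without leaf41 were miR156g_3p, miR408_3p/miR408b_3p, MIR172l_3p and miR167f_3p.

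The balance of the directions moved with the scaling and with the libraries in the fit. The median log2 difference over the tested sequences was 0.56 with TMM, 0.09 with the DESeq2 size factors, which called 26 higher and 28 lower, 0.54 with library totals (30 and 21) and 0.53 with the authors' divisor (22 and 17). With only the 6 root and leaf libraries the median was -0.30 and the split 11 and 27, and without flower45 it was -0.39 with 11 and 34. All 4 scalings called 37 sequences, 21 higher and 16 lower, and 36 of these were also called without leaf41. Of the 45, 19 were called whichever library was left out and under all 4 scalings. With only the 6 libraries, 17 of these 19 were called, and miR390a_5p and miR171b_5p did not pass the low-count filter there. Of all 45 calls, however, only 26 were made with the 6 libraries, and of the 37 under all 4 scalings only 24. Calls lost in this setting are marked below for some sequences only, and the counts per list of families are not repeated for it.

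**Figure D2:**
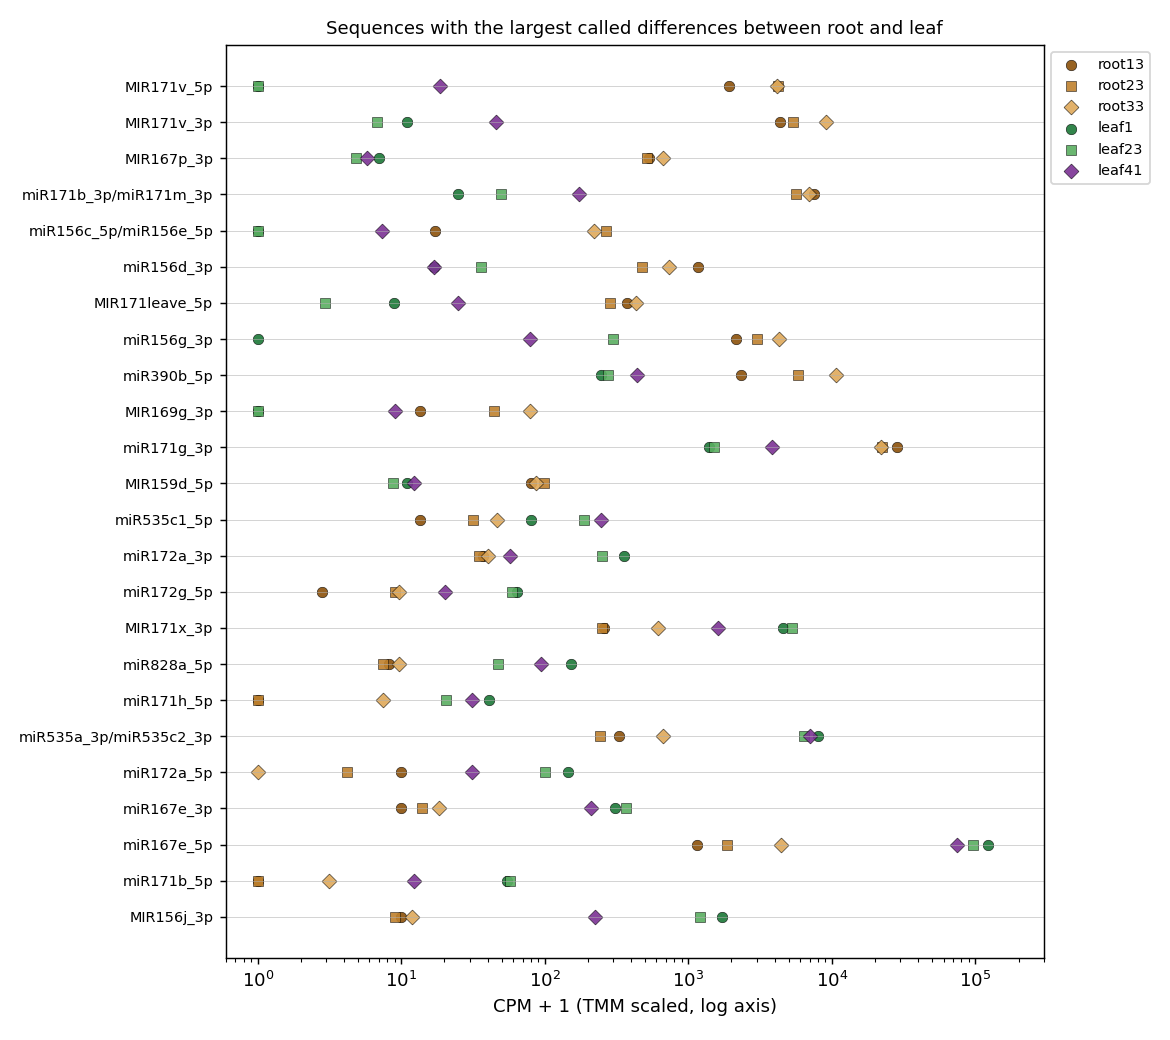
Level (CPM + 1 after TMM scaling, log axis) in each library of the 24 called sequences with the largest differences, 12 in each direction. Root libraries lie right of leaf libraries in the upper part and left of them in the lower part, and leaf41 lies nearest to root in many rows, such as miR171b_3p/miR171m_3p at 173 CPM against 23.8 and 48.5 in the other leaf libraries.

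Among the families that act in auxin signalling, miR390 was higher in root, and of the 3 main miR167 sequences 2 were lower and 1 higher. miR390 starts the production of trans-acting small RNAs that repress auxin response factor genes, and miR160 and miR167 act on such genes directly. Of the 18 tested auxin sequences of 35 listed, 7 were higher and 3 lower in root, with a median log2 difference of 1.86, beside 28 and 17 of 129 and a median of 0.56 over all tested sequences. Under all 4 scalings, 6 were higher and 3 lower, and without leaf41 the counts were 9 and 3 of 19, beside 52 and 28 of 141. The list also holds miR393, of which no sequence was called. Its 3 tested sequences had negative differences, miR393b_3p log2 -0.97, miR393b_5p/miR393c_5p -1.68 and MIR393c-3p/miR393c_3p -1.18.

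The main miR390 sequence, miR390b_5p, stood at 2311, 5827 and 10750 CPM in root and at 246, 273 and 441 CPM in leaf. Every root library exceeded every leaf library, although root13 and root33 differed by more than any pair of leaf libraries. The difference was log2 4.30 ± 0.56 SE (adjusted p = 0.000605) and was called whichever library was left out. Its opposite strand, miR390b_3p, stood at 388, 980 and 2432 CPM in root and 164.6, 291 and 174 CPM in leaf (log2 2.59 ± 0.73 SE, adjusted p = 0.0257), a call lost without root33, flower45, leaf1 or leaf23. miR390a_5p had 5.38, 3.22 and 8.66 CPM in root and no read in leaf, which is at least 1.04-fold higher when leaf is set to 3 counts in each library. The miR390 total rose in root in the fit of families too (log2 3.31 ± 0.45 SE, adjusted p = 0.000671).

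The 3 main miR167 sequences, which share a seed, moved in different directions. miR167e_5p stood at 1152, 1860 and 4432 CPM in root and at 123272, 96899 and 74730 CPM in leaf. The groups were far apart in all libraries (log2 -5.31 ± 0.62 SE, adjusted p = 0.000577). miR167b_5p stood at 16457, 15776 and 15186 CPM in root and at 76738, 59630 and 73923 CPM in leaf, again with no overlap (log2 -2.15 ± 0.27 SE, adjusted p = 0.000605). Both calls held whichever library was left out. miR167c_5p/miR167h_5p went the other way, with 9333, 18504 and 23582 CPM in root and 5808, 2456 and 5387 CPM in leaf (log2 1.91 ± 0.54 SE, adjusted p = 0.0257). That call was lost without root33, flower45, leaf1 or leaf23, and with only the 6 libraries (log2 0.93). A much rarer strand, MIR167p_3p, stood at 531, 515 and 666 CPM in root and 5.95, 3.88 and 4.79 CPM in leaf (log2 6.82 ± 1.20 SE, adjusted p = 0.00231). The opposite strand of miR167e, miR167e_3p, was lower in root like its partner (8.97, 12.9 and 17.3 CPM against 307, 366 and 209 CPM; log2 -4.48 ± 0.77 SE, adjusted p = 0.00195).

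The highest miR160 sequence, MIR160k_5p, stood at 9883, 7701 and 18410 CPM in root and at 153, 983 and 3492 CPM in leaf, and was not called in the fit of sequences (log2 2.96 ± 1.09 SE, adjusted p = 0.0569). It was called without leaf41 (log2 4.34). No leaf library reached the lowest root library, and leaf41 was the highest in leaf. The total of the 11 miR160 sequences was called (log2 2.40 ± 0.76 SE, adjusted p = 0.0427), but not with the authors' divisor nor in 7 of 9 fits that left out 1 library, all except those without flower1 or leaf41.

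In the list of families that act on HD-ZIP, NAC, GRAS, TCP and GRF transcription factors, the called sequences were all of miR171, which acts on GRAS genes of the HAIRY MERISTEM group. Of 33 tested members of 62 listed, 7 (21.2%) were higher and 3 (9.09%) lower in root, shares near the 21.7% and 13.2% over all tested sequences, with a median log2 difference of 0.77 beside 0.56 over all tested sequences, and the same 7 and 3 were counted under all 4 scalings. Without leaf41, 14 were higher and 6 lower of 36, beside 52 and 28 of 141. A further 2 sequences that are also listed under miR845, miR171d1_3p/MIR845g-3p and miR166h_3p/MIR166o_3p/MIR845h-3p, were both higher in root.

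The most abundant miR171 sequence, miR171h_3p, differed least among those called, with 39069, 35172 and 38227 CPM in root and 15238, 11551 and 19673 CPM in leaf (log2 1.28 ± 0.29 SE, adjusted p = 0.00874). The call was lost without flower45, leaf1 or leaf23 and with only the 6 libraries (log2 0.38). miR171g_3p stood at 28297, 22223 and 22078 CPM in root and at 1386, 1518 and 3813 CPM in leaf (log2 3.43 ± 0.50 SE, adjusted p = 0.000882). The sequence that lies within it, miR171b_3p/miR171m_3p, stood at 7474, 5625 and 6905 CPM in root and at 23.8, 48.5 and 173 CPM in leaf (log2 6.35 ± 0.92 SE, adjusted p = 0.000882). In both, the root libraries were close together and leaf41 was the highest leaf library.

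Both strands of MIR171v were far higher in root than in leaf. MIR171v_3p stood at 4325, 5333 and 9049 CPM in root and at 9.91, 5.82 and 44.7 CPM in leaf (log2 8.24 ± 1.06 SE, adjusted p = 0.000605), and MIR171v_5p at 1934, 4196 and 4142 CPM in root and at 0, 0 and 17.6 CPM in leaf (log2 9.09 ± 1.55 SE, adjusted p = 0.00195). The leaf reads of MIR171v_5p were all in leaf41. MIR171x_3p went the other way, with 258, 251 and 610 CPM in root and 4567, 5259 and 1609 CPM in leaf (log2 -3.35 ± 0.64 SE, adjusted p = 0.00348). It has the seed of miR171g_3p, UGAGCCG, and 3 tested sequences with this seed were higher in root and MIR171x_3p lower, of 5 tested. These calls held whichever library was left out. The other called members higher in root were MIR171leave_5p, named as in the table (log2 4.96 ± 1.31 SE, lost without leaf1 or leaf23), and miR171f_3p (log2 2.45 ± 0.75 SE, lost without each of 6 libraries in turn). The rare 5p strands of miR171b and miR171h were also lower in root. miR171b_5p had 1 count in root and 63 in leaf (62.8-fold higher in leaf, exact 95% interval 10.9 to 2520, for counting error only), and miR171h_5p had 3 and 49 (16.3-fold, 5.25 to 81.7).

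The other abundant members of the list did not pass the test. They were miR166c_3p/miR166l_3p (44973, 110973 and 75426 CPM in root, 40298, 40856 and 37092 CPM in leaf; log2 0.97 ± 0.35 SE, adjusted p = 0.0569), miR396b_5p (adjusted p = 0.444) and miR164b2_5p (adjusted p = 0.145). miR166h_3p/MIR166o_3p/MIR845h-3p, which differs from miR166a_3p/miR166b_3p by C20U counted from the 5′ end of the latter, stood at 27671, 28216 and 34999 CPM in root and at 5495, 5317 and 17271 CPM in leaf (log2 1.69 ± 0.46 SE, adjusted p = 0.0229). Its groups did not overlap, but the call was lost in 8 of 9 fits that left out 1 library, all except that without leaf41.

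Among the called sequences of the phase change families, those of miR535 were lower in root, and those of miR172 and miR156 lay on both sides. miR156 acts on SPL transcription factors, which move a plant from juvenile to adult growth, miR172 acts on AP2-like factors, and miR535 is related to miR156 in sequence. Of 25 tested members of 41 listed, 4 (16%) were higher and 7 (28%) lower in root, beside 21.7% and 13.2% over all tested sequences. Under all 4 scalings 2 were higher and 7 lower, and without leaf41, 9 and 8 of 26, beside 52 and 28 of 141. The list had a median log2 difference of 0.78, beside 0.56 over all tested sequences.

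miR535a_5p/miR535c2_5p stood at 10786, 11635 and 13712 CPM in root and at 56616, 67280 and 72899 CPM in leaf, with no overlap (log2 -2.45 ± 0.27 SE, adjusted p = 0.000577). Its opposite strand, miR535a_3p/miR535c2_3p, was at 327, 243 and 669 CPM in root and 8047, 6451 and 7010 CPM in leaf (log2 -4.12 ± 0.57 SE, adjusted p = 0.000769). Leaf41 stood with the other leaf libraries in both. The same family held sequences in which it did not. miR535b_5p stood at 4978, 5946 and 7654 CPM in root and at 638, 795 and 6986 CPM in leaf, and it was not called with leaf41 (log2 1.14 ± 0.87 SE, adjusted p = 0.298) and was called without it (log2 3.04, adjusted p = 0.00391). The sequence lower in root and the one called higher without leaf41 differ by A5G.

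MIR156j_3p, a 22-nt strand, stood at 8.97, 8.05 and 10.8 CPM in root and at 1707, 1210 and 222 CPM in leaf (log2 -6.79 ± 1.04 SE, adjusted p = 0.00116). Its opposite strand, shared with miR156b_5p, differed far less, at 1030, 1427 and 1813 CPM in root and 2086, 2047 and 2336 CPM in leaf (log2 -0.60 ± 0.51 SE, adjusted p = 0.34). In root, miR156d_3p was higher, at 1170, 475 and 734 CPM against 15.9, 34.9 and 15.98 CPM in leaf (log2 5.14 ± 0.80 SE, adjusted p = 0.00116). These are strands opposite to the canonical 5p strand of miR156. The sequence of miR156c_5p/miR156e_5p was also called higher in root, at 16.1, 266 and 219 CPM against 0, 0 and 6.39 CPM (log2 6.07 ± 1.603 SE, adjusted p = 0.0257). That call was lost without root23, root33, leaf1 or leaf23. miR156g_3p stood at 2151, 3032 and 4261 CPM in root and at 0, 299 and 78.3 CPM in leaf (log2 4.65 ± 1.52 SE, adjusted p = 0.0425), and its call held only when leaf1 or leaf23 was the library left out. The most abundant member, miR156g_5p, was not called, at 9636, 10522 and 12979 CPM in root and 2451, 4507 and 10299 CPM in leaf (adjusted p = 0.173), and was called without leaf41 (log2 1.59).

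Of miR172, miR172a_5p (8.97, 3.22 and 0 CPM in root, 145, 98.9 and 30.4 CPM in leaf; log2 -4.39 ± 1.04 SE, adjusted p = 0.012), miR172a_3p (log2 -2.59 ± 0.77 SE) and miR172g_5p (log2 -2.89 ± 0.996 SE) were lower in root, and MIR172l_3p (log2 2.49 ± 0.77 SE) was higher. All 4 were rare, with 355 CPM of miR172a_3p in leaf1 as the highest value. The call of miR172a_5p was lost without root23, and those of the other 3 without each of 5 to 7 libraries in turn.

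In the smaller lists, the called silencing sequences were lower in root and the called copper sequences higher. The total of the miR398 family, also of the copper list, was called lower in root. The silencing families act on a Dicer-like gene (miR162) and on Argonaute genes (miR168 and miR403). Of 8 tested members, none was higher and 3 (37.5%) were lower in root, beside 21.7% and 13.2% over all tested sequences (median log2 difference -1.03 beside 0.56), with 2 under all 4 scalings and 4 of 9 without leaf41. MIR168g_3p stood at 3400, 4646 and 3668 CPM in root and at 12155, 14556 and 10997 CPM in leaf (log2 -1.69 ± 0.35 SE, adjusted p = 0.00602), a call made whichever library was left out. miR168a_3p (203, 283 and 223 CPM in root, 1083, 1173 and 1059 CPM in leaf) was lower by log2 -2.22 ± 0.54 SE, a call lost without root13 or root23. The sequence of MIR168g_3p lies within that of miR168a_3p, and both are 3p strands, so these calls are not separate. MIR403b_3p was lower by log2 -1.92 ± 0.66 SE under 2 of the 4 scalings, and it was lost in 7 of 9 fits that left out 1 library, all except those without flower45 or leaf41. The main strand, miR168a_5p/MIR168f_5p, stood at 17108, 23239 and 33960 CPM in root and at 51549, 34641 and 47206 CPM in leaf. It was not called, although its groups did not overlap (log2 -0.84 ± 0.36 SE, adjusted p = 0.0905).

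The copper list holds families that repress copper proteins such as laccases (miR397), superoxide dismutases (miR398) and plantacyanins (miR408). Of 5 tested members, 3 (60%) were higher in root and none lower, beside 21.7% and 13.2% over all tested sequences, and 2 of the 3 were called under all 4 scalings. Without leaf41, 2 of 6 were higher and 1 lower, beside 36.9% and 19.9%. miR397_5p stood at 725, 489 and 407 CPM in root and at 57.5, 94.98 and 33.6 CPM in leaf, with no overlap (log2 3.12 ± 0.77 SE, adjusted p = 0.0139). It was lost without flower45 or leaf1. The others were miR397_3p (log2 3.09 ± 0.92 SE) and miR408_3p/miR408b_3p (log2 2.54 ± 0.89 SE, 2 scalings), lost without each of 5 and 8 libraries in turn. As miR397_5p and miR397_3p are strands of the same hairpin, their calls do not stand for separate hairpins. MIR398c_3p stood at 0, 0 and 60.6 CPM in root and at 111, 430 and 7507 CPM in leaf. Its groups did not overlap, but leaf41 held most of the reads and the difference was not called (log2 -7.07 ± 2.52 SE, adjusted p = 0.0546). The other tested member, MIR408c_5p, was not called and had a negative difference (log2 -1.84). In the fit of families, miR398 was called lower in root, and the miR408 total was not called (log2 -0.49 ± 1.13 SE, edgeR adjusted p = 0.771).

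Of the other lists, NF-YA (miR169) had 2 higher of 8 tested (25%, near the 21.7% over all tested sequences), MIR169g_3p and miR169d_3p, with 1 under all 4 scalings. GAMYB (miR159) had 1 higher of 4 (25%), MIR159d_5p, a rare strand at 78.9, 98.2 and 86.6 CPM in root and 9.91, 7.75 and 11.2 CPM in leaf (log2 3.16 ± 0.54 SE, adjusted p = 0.00195). R2R3-MYB had 1 lower of 2, miR828a_5p, which acts on MYB genes of phenylpropanoid metabolism. It stood at 7.18, 6.44 and 8.66 CPM in root and at 151, 46.5 and 92.7 CPM in leaf (log2 -3.67 ± 0.66 SE, adjusted p = 0.00254). The last 2 calls held whichever library was left out. None of the 3 NBS-LRR and 5 nutrient sequences was called by edgeR, and without leaf41 the nutrient list, of families in sulfate and phosphate uptake, had 2 higher and 2 lower of 6, beside 52 and 28 of 141. Of 15 tested sequences of all further families, 2 (13.3%) were higher, miR5301_3p and MIR7782l_5p, neither under all 4 scalings.

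**Figure D3:**
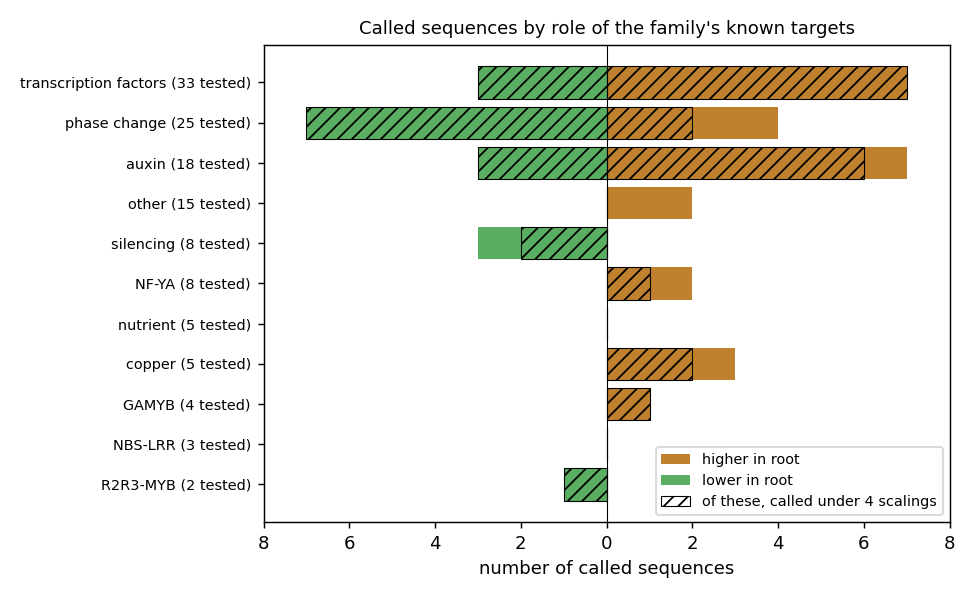
Number of called sequences (horizontal axis, from 0) per list of families with a shared target role, with bars to the right for those higher and to the left for those lower in root, and hatching for those called under all 4 scalings. The auxin list has 7 higher and 3 lower, and the silencing list has 3 lower and none higher.

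Summed over sequences, 13 of 40 families differed (32.5%), 5 (12.5%) higher and 8 (20%) lower in root, and 9 were called under all 4 scalings. Family CPM values come from a fit of family totals with its own TMM factors. Those higher were miR390, miR397 (log2 2.81 ± 0.79 SE, adjusted p = 0.0332), miR160, miR171 (log2 1.43 ± 0.34 SE, adjusted p = 0.0142) and the joint miR166/miR845 sequence (log2 1.35 ± 0.46 SE, adjusted p = 0.0478). Those lower were miR167 (log2 -2.65 ± 0.39 SE, adjusted p = 0.00093), miR535 (log2 -2.28 ± 0.28 SE, adjusted p = 0.000647), miR828 (log2 -3.99 ± 0.71 SE, adjusted p = 0.00281), miR168 (log2 -1.29 ± 0.28 SE, adjusted p = 0.00916), miR398 (log2 -7.45 ± 2.25 SE, adjusted p = 0.0427), and, under 2 of the 4 scalings, miR172 (log2 -1.92 ± 0.60 SE), miR159 (log2 -1.30 ± 0.42 SE) and miR403 (log2 -1.69 ± 0.57 SE). The calls of miR390, miR167 and miR535 held whichever library was left out. The miR398 difference was log2 -4.13 without leaf41, which held 4701 of its counts against 85 in leaf1 and 256 in leaf23. The call of miR171 was lost without root13 or leaf1, that of miR828 without root13, that of miR168 without root13 or root33, that of miR398 without root13, root23 or flower2, and that of miR397 without root13, root23, flower2 or leaf1. Those of miR159, miR172 and miR166/miR845 were lost in 8 of 9 fits, all except without leaf41, and that of miR403 in 7, all except without flower1 or leaf41. The total of the other miR166 sequences stood at 353682, 547633 and 478785 CPM in root and at 361325, 492013 and 356267 CPM in leaf. It overlapped between the organs and was not called (log2 0.19 ± 0.20 SE, adjusted p = 0.497). With library totals in place of TMM it was called higher in root (log2 0.54, adjusted p = 0.016). The miR166 share of the library given above was likewise taken without TMM, and unlike this total it includes the joint miR166/miR845 sequence.

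Without leaf41, 25 of the 40 families differed (62.5%), 14 (35%) higher and 11 (27.5%) lower in root, 12 of them in addition to the 13. The added ones higher in root were miR474, miR5301, miR477, miR319, miR1511, the joint miR171/miR845 sequence, miR156, miR399 and miR394. The added ones lower were miR391, miR1446 and miR2111. The miR319 family, which acts on TCP factors of leaf growth, stood at 9098, 6654 and 6207 CPM in root and at 53.6, 1081 and 3512 CPM in leaf (log2 2.24 ± 1.13 SE, adjusted p = 0.145, and 4.33 without leaf41, adjusted p = 0.00101). The miR394 family, which acts on an F-box gene, stood at 1322, 587 and 994 CPM in root and at 39.2, 223 and 5651 CPM in leaf. Its difference turned from log2 -1.03 with leaf41 (adjusted p = 0.625) to 3.41 without it (adjusted p = 0.00875). In miR319 every leaf library lay below every root library, and in miR394 leaf41 lay above them all.

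Within families, the mix of sequences was tested with edgeR's diffSpliceDGE, which sets each sequence against the rest of its family. Of 112 sequences in 23 families, 27 took a different share (24.1%), 16 (14.3%) larger and 11 (9.82%) smaller in root. With the DESeq2 size factors 31 did and with library totals 26, and 26 of the 27 were shared with each. Without leaf41, 42 of 128 did (32.8%), 27 (21.1%) larger and 15 (11.7%) smaller, including 26 of the 27.

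Of the 3 main miR167 sequences, the shares of 2 differed between the organs. miR167e_5p took 4.17%, 5.05% and 10.01% of the family in root and 59.8%, 60.8% and 48.4% in leaf (adjusted p = 0.000927). miR167c_5p/miR167h_5p took 33.8%, 50.2% and 53.3% in root and 2.82%, 1.54% and 3.49% in leaf (adjusted p = 2.82e-05). The share of miR167b_5p overlapped, with 45.6% ± 12.9 in root and 40.8% ± 6.11 in leaf (adjusted p = 0.998). The change thus lay between sequences that differ by A21G, and both calls held whichever library was left out. The rare MIR167p_3p took 1.61% ± 0.28 in root and 0.0028% ± 0.0003 in leaf (adjusted p = 3.15e-08).

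In miR171, miR171b_3p/miR171m_3p took 9.09%, 7.65% and 8.22% in root and 0.105%, 0.244% and 0.618% in leaf (adjusted p = 0.000103), and MIR171v_3p took 5.26%, 7.26% and 10.8% in root and 0.0438%, 0.0293% and 0.16% in leaf (adjusted p = 8.35e-07). MIR171x_3p took 0.314%, 0.342% and 0.726% in root and 20.2%, 26.5% and 5.76% in leaf (adjusted p = 1.09e-05). The share of MIR171x_3p was lowest in leaf41 among the leaf libraries, still above every root library. In miR156, MIR156j_3p took 0.0412% ± 0.0037 in root and 23.7%, 13.4% and 1.04% in leaf (adjusted p = 0.0002). In miR169, the family of NF-YA regulators, MIR169k_3p took 0.21%, 0.436% and 1.17% in root and 63.9%, 58.7% and 1.59% in leaf (adjusted p = 0.00367), lost without root13 or root23. In MIR169k_3p leaf41 was near the root values, and in MIR156j_3p it lay between the other leaf libraries and root. In miR535, miR535b_5p took 27.9%, 30.6% and 31.5% in root and 0.974%, 1.06% and 7.76% in leaf (adjusted p = 0.0241), and the call was lost in 7 of 9 fits, all except those without flower45 or leaf41.

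**Figure D4:**
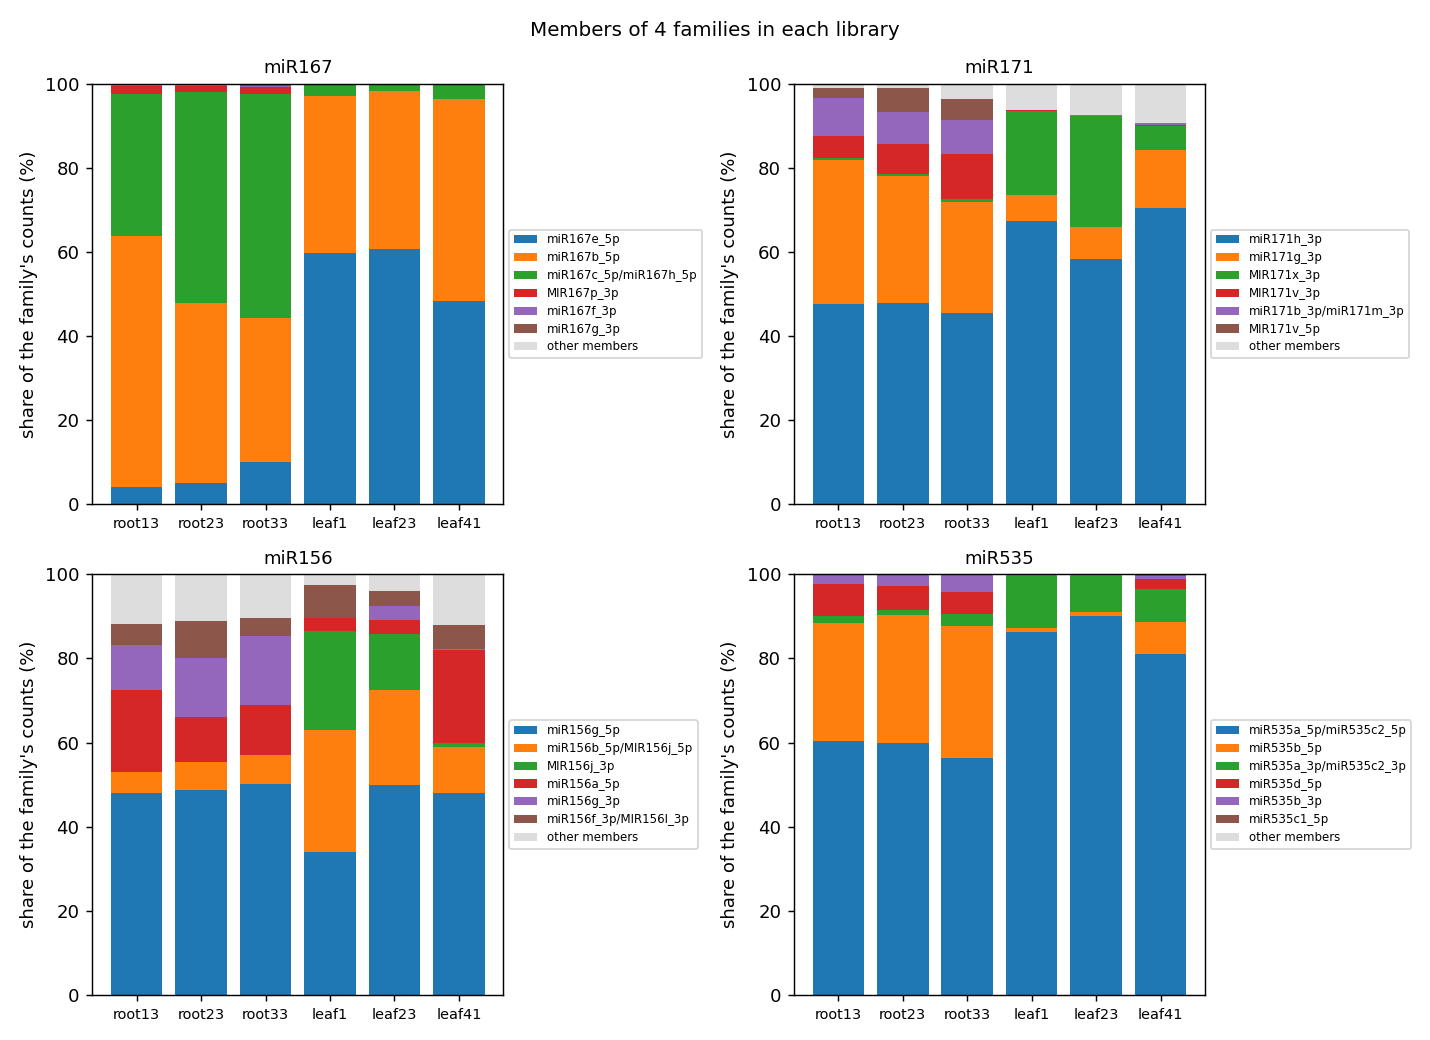
Stacked shares of the main sequences (percent of the family's counts) in each root and leaf library for 4 families, with further members in grey. In miR167, miR167c_5p/miR167h_5p takes 33.8% to 53.3% in root libraries where miR167e_5p takes 48.4% to 60.8% in leaf libraries.

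The balance of the strands of a hairpin was compared by limma on log2 of the 5p over the 3p count, each with 1 added. Of 60 hairpins with both strands listed and a mean of at least 20 counts, 14 differed (23.3%), 5 (8.33%) with a higher and 9 (15%) with a lower 5p part in root. The libraries did not overlap for 25 (41.7%). Without leaf41, 22 differed (36.7%), 12 (20%) higher and 10 (16.7%) lower, including all 14. Only 8 of the 14 had at least 10 counts in each strand over the 6 libraries, a condition chosen after the values were seen and met by 41 of the 60. In the others a strand was near 0, so that the ratio follows the level of its partner. No called hairpin changed its dominant strand by the organ means.

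In miR171b the balance moved with both strands. Its 5p strand had 0, 0 and 1 counts in root and 27, 29 and 7 in leaf, and its 3p strand, which is shared with miR171m, had 4166, 3495 and 3191 counts in root and 12, 25 and 108 in leaf. In leaf1 and leaf23 the 5p count exceeded the 3p count, and in the other 4 libraries it did not (log2 ratio lower in root by -10.66 ± 1.14 SE, limma adjusted p = 0.000348). In miR171h the 5p strand had 0, 0 and 3 counts in root and 20, 10 and 19 in leaf beside 17666 to 21777 and 5959 to 12311 of the 3p strand (log2 -4.69 ± 0.72 SE, adjusted p = 0.0022). MIR156j had 574, 887 and 838 counts of its 5p strand, shared with miR156b, and 5 of its 3p strand in each root library. In leaf the 5p strand had 1052, 1056 and 1462 counts and the 3p strand 861, 624 and 139, which brought the strands near to equal in leaf1 and leaf23 (log2 5.50 ± 0.81 SE, adjusted p = 0.0022). These 3 calls held whichever library was left out.

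Other hairpins moved less firmly. In miR156g the 3p strand had 1199, 1884 and 1969 counts in root and 0, 154 and 49 in leaf, beside 5371 to 6538 and 1236 to 6445 of the 5p strand (log2 -5.21 ± 1.38 SE, adjusted p = 0.0238, lost without root13, root23, root33 or leaf1). In miR535a/miR535c2 the 5p strand led in all libraries, and the ratio exceeded that of leaf in each root library (log2 1.80 ± 0.55 SE, limma adjusted p = 0.0419), a call lost in 7 of 9 fits, all except those without root33 or leaf41. For miR167c the call (log2 3.62 ± 0.58 SE, adjusted p = 0.00229) rests on 0 or 1 counts of the 3p strand in each root library and 2 to 5 in each leaf library. Such counts allow no statement about the 3p strand itself.

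The sequences on which leaf41 stood farthest from leaf1 and leaf23 were chosen for that difference and are described without a test of it. Of the 6 with the largest differences, miR535d_5p and MIR156n_3p were high in leaf41 and in root and near 0 in the other leaf libraries. miR535d_5p stood at 1333, 1102 and 1288 CPM in root and at 3.97, 3.88 and 2141 CPM in leaf, and its log2 difference moved from 0.79 with leaf41 to 8.19 without it. MIR156n_3p stood at 118, 111 and 119 CPM in root and at 0, 1.94 and 507 CPM in leaf (log2 -0.55 with leaf41, 6.56 without it). The other 4 had no read in leaf41. MIR7122a_3p stood at 106, 0 and 12.98 CPM in root and at 464 and 333 CPM in leaf1 and leaf23, MIR482c at 0, 0 and 123 CPM and at 125 and 168.6 CPM, MIR1446a_3p at 14.4, 43.5 and 36.8 CPM and at 173 and 77.5 CPM, and MIR2111a_3p at 35.9, 14.5 and 25.97 CPM and at 65.4 and 194 CPM. In MIR482c the root libraries were as uneven as the leaf libraries. Among the sequences named above, miR167b_5p, miR535a_5p/miR535c2_5p, miR535a_3p/miR535c2_3p and MIR168g_3p differed between leaf41 and the mean of leaf1 and leaf23 by 0.13, 0.24, -0.04 and -0.27 on the log2 scale.

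**Figure D5:**
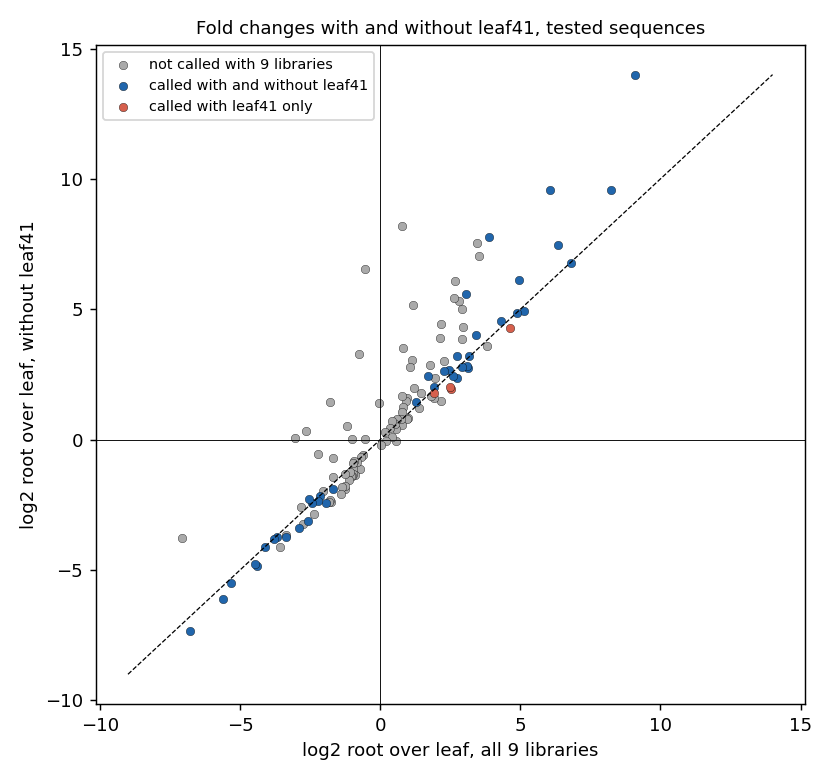
Log2 difference, root over leaf, of each sequence with all libraries (horizontal axis) and without leaf41 (vertical axis), with the diagonal as a line. Points in colour were called with all libraries, and the 41 in blue also without leaf41. Among those in grey, miR535d_5p (0.79 and 8.19) and MIR156n_3p (-0.55 and 6.56) lie far above it.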

How the data were processed

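Per the file headers, the deposited table gives 1 raw count per miRNA entry and library, which the authors did not normalise, and beside it a score called RPTM, rounded to whole numbers, which equals the count divided by 1 constant per library (2.11 to 2.25). The score was not tested. Per the labels' protocols, RNA was extracted with TRIzol and ribosomal RNA was removed before standard Illumina library preparation. The sources used here do not name the tools for trimming, alignment and counting. Names are given without the species prefix, as spelled in the table, including MIR171leave_5p. An entry with no name was blank and left out.

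For distinct sequences, counts entered edgeR 4.0.16 (R 4.3.3; quasi-likelihood F test, TMM, filterByExpr by organ, all 9 libraries in 1 fit, contrast root minus leaf, Benjamini-Hochberg adjustment at 0.05). The 129 tested sequences held 99.97% of the counts. A sequence under 2 families (4 of them) was kept as a joint unit. SE is the absolute log2 difference over the square root of F. Strand ratios were tested with limma 3.58.1 in the same 9 libraries. The common biological coefficient of variation was 0.772. Tests were checked on simulated counts. The simulation used a lower coefficient of variation and no library set apart from its group. It therefore does not show how the tests behave with the spread of these data or with leaf41. Named sequences were the 12 largest called differences per direction with at least 10 mean CPM and no overlap, the 10 most abundant per organ, called families, the 6 largest per direction for strands and mixes, called members of lists with up to 10 tested members, and the 6 on which leaf41 stood farthest apart. Others were named after their values were seen. Members, lists and rules were chosen with earlier results of these data known. Alternatives were DESeq2 1.42.0, other scalings, filters and pseudocounts, each entry counted, only 6 libraries, and each library left out.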

Additional observations from a re-analysis of the deposited data

How the results depend on the processing

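The count of 45 sequences was 68 with DESeq2, 24 with a fold of at least 2, and 25 to 80 when 1 library was left out (25 without root23 or leaf1, 28 without leaf23, 80 without leaf41). The count of 13 families was 4 with a fold of at least 2, 8 with only the 6 libraries, 24 with 5 libraries (no flower, no leaf41, added after the data were seen), and 3 (without root13) to 25 (without leaf41) with 1 library left out. The 14 strand ratios became 5 (without root13, root23 or leaf1) to 22 (without leaf41), and the 27 changes of mix 16 (without root23) to 42 (without leaf41). The cause was not tested. Other scalings and filters kept these counts within 1.5 times, although no low-count filter gave 16 sequences higher and 49 lower, a mean of at least 10 CPM 22 and 26, DESeq2 33 and 35, counting each entry 14 and 36, and 5 libraries 27 and 40. Direction turned for miR166a_3p/miR166b_3p (log2 -0.42 with no filter, -0.49 with the 6 libraries, -0.34 with each entry counted, -0.45 without flower45 to 0.74 without root13 when 1 library was left out, -0.72 with 5 libraries), miR166c_3p/miR166l_3p (-0.064 with the 6 libraries, -0.031 without flower45 to 1.115 without root13, -0.29 with 5), miR396b_5p (-0.043 with DESeq2 or its size factors, -0.49 with no filter, -0.56 with the 6 libraries, -0.53 with each entry counted, -0.54 without flower45 to 0.46 without leaf41, -0.60 with 5) and MIR156n_3p (-1.27 without leaf1 to 6.56 without leaf41, 5.53 with 5 libraries). The 22-nt difference of -5.39 percentage points was -3.26 with each entry counted. No paired analysis was possible because root and leaf share only 1 library number. Sequences under the filter, with few counts, allow no statement, and with 3 libraries an exact p cannot fall below 0.1.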

Other observations

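Over all 129 tested sequences, 28 (21.7%) were higher and 17 (13.2%) lower in root, with a median log2 difference of 0.56. By strand and length the counts were as follows. Of 70 tested 3p sequences, 19 were higher and 8 lower in root, with a median log2 difference of 0.95. Of 55 tested 5p sequences, 9 were higher and 9 lower, with a median of 0.35. Among 20-nt sequences, 5 of 18 were higher and 2 lower, among 21-nt sequences 20 of 86 and 11, and among 22-nt sequences 2 of 17 and 4. These are counts with no test of the difference between classes.

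The tested sequences held 97 seeds, of which 20 were shared by at least 2 tested sequences. Calls in both directions occurred under 3 seeds. They were UGAGCCG of miR171 3p strands (3 higher and 1 lower of 5), GAAGCUG of miR167 5p strands (1 higher and 2 lower of 4) and GAAUCUU of miR172 3p strands (1 higher and 1 lower of 2).

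Several families rare in leaf1 and leaf23 were higher in all root libraries. These families, and miR391 after them, were picked with the values seen, so their p-values without leaf41 give no separate support. The miR477 family stood at 1132, 1736 and 1080 CPM in root and at 70.1, 11.9 and 627 CPM in leaf, and was not called with leaf41 (edgeR adjusted p = 0.15) and was called without it (log2 5.05, adjusted p = 0.00181). The miR474 family stood at 255, 113 and 73.3 CPM in root and at 0, 2.38 and 42.4 CPM in leaf (adjusted p = 0.135, and 0.00117 without leaf41). The miR391 family went the other way, with 270, 211 and 223 CPM in root and 961, 1148 and 270 CPM in leaf (adjusted p = 0.0862, and 0.0465 without leaf41). In each of these, leaf41 lay nearer to root than leaf1 and leaf23 did.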
